A study of Mus musculus with 10 samples.

Results

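Mouse splenic B cells that divided again in a second culture phase (div12_48_d) were compared with cells that did not (div12_48_u), over every gene in the deposited expression table. The comparison used 4 of the 10 libraries of the series, 2 in each group, picked by their labels. Of 6610 gene symbols, obtained by summing the listed transcripts of each symbol, 4427 passed the filter on low values and were tested. All cells came from C57BL/6 mice, an inbred strain, with no other genotype named. Both groups began as cells pulsed for 48 h with anti-IgM, which engages the B cell receptor for antigen, together with anti-CD40, which engages a receptor for T cell help. Those that had divided by then (div12) were kept for a further 48 h in 0.12 µg/ml of the CD40 antibody and were then separated by flow sorting into cells that had divided in this time and cells that had not. The submitters call this second phase, Phase II, mitogen-independent. The dye or marker used for the sort is not given in the sources used here. In Phase I, div12 cells were set beside cells that had received the same pulse for 48 h and had not divided (div0), and resting cells formed the group naive. Each Phase I replicate was a pool of 4 to 5 mice, per the labels. Whether the Phase II replicates were pools too is not stated, so the spread between their libraries may be in part technical. The p-values below rest on a spread between replicates that is pooled over all 10 libraries.

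A B lymphocyte that receives signals through its antigen receptor and CD40 leaves quiescence, grows, copies its DNA and divides, and its descendants can divide further before they stop, die or become antibody-secreting cells. Survivin, the protein of Birc5, is a small member of the inhibitor of apoptosis family. In mitosis it works in the chromosomal passenger complex, which holds the Aurora B kinase at centromeres and at the midzone of the spindle, and the title of the series places it in the G1 phase that follows mitosis.

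Each library sums to 1000000 TPM (a relative abundance that corrects for transcript length), so read depth is unknown and no counting interval can be given. Of 21896 protein-coding genes in the reference annotation, 6320 (28.9%) are among the listed symbols, and the others were not analysed here. Cd79a, a signalling chain of the antigen receptor, stood between 6746 and 8539.5 TPM. Cd3e, a defining T cell gene, was at or below 0.345 TPM, Csf1r, the receptor that marks macrophages, at or below 0.158 TPM, and C1qa, Ncr1 and Pf4 were listed at 0 in all 4 Phase II libraries. Other markers of the same lists were measured at higher levels, so that the myeloid list summed to between 552 and 1371 TPM and the globin gene Hbb-b1 stood between 19.8 and 43.5 TPM. The log2 ratio between replicate libraries had an SD over genes of 0.297 in div12_48_d and 0.333 in div12_48_u. It was 0.258 in div0, 0.28 in div12 and 0.553 in naive, groups that also enter the estimate of spread. In bulk samples, fewer cells of a type and less RNA per cell cannot be told apart.

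Of the 4427 genes tested, 1134 (25.6%) differed between div12_48_d and div12_48_u at a Benjamini-Hochberg adjusted p under 0.05 in limma. These were 540 genes (12.2%) higher and 594 genes (13.4%) lower in cells that had divided again, and below the words rise and fall are kept for genes that passed this test. Differences are log2 fold changes, div12_48_d minus div12_48_u, of log2(TPM + 1), with the standard error after ±, and this scale understates the change of low genes. The median difference was -0.08 over all tested genes, 0.78 over those called higher and -0.56 over those called lower. Most of the large changes were rises. Among called genes 187 were at least 2-fold higher and 62 at least 2-fold lower, and 35 were at least 4-fold higher against 1 that was at least 4-fold lower. With libraries rescaled by the median ratio, the same test called 669 genes higher and 492 lower. Leaving out div12_48_d replicate 1 gave 202 genes called higher and 145 lower, without div12_48_d replicate 2 there were 383 and 442, without div12_48_u replicate 1 there were 354 and 199, and without div12_48_u replicate 2 there were 278 and 351. Without div0 replicate 1, a library outside the comparison that adds to the estimate of spread, 435 and 392 were called. Each of these fits leaves a lone library in a group, so a lost call does not show that it rested on the library left out. Libraries of the groups did not overlap for 1266 genes higher (28.6%) and 1777 genes lower (40.1%) in div12_48_d. Below, d1 and d2 stand for replicates 1 and 2 of div12_48_d and u1 and u2 for those of div12_48_u, and a value pair gives replicate 1 before replicate 2.

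**Figure D1:**
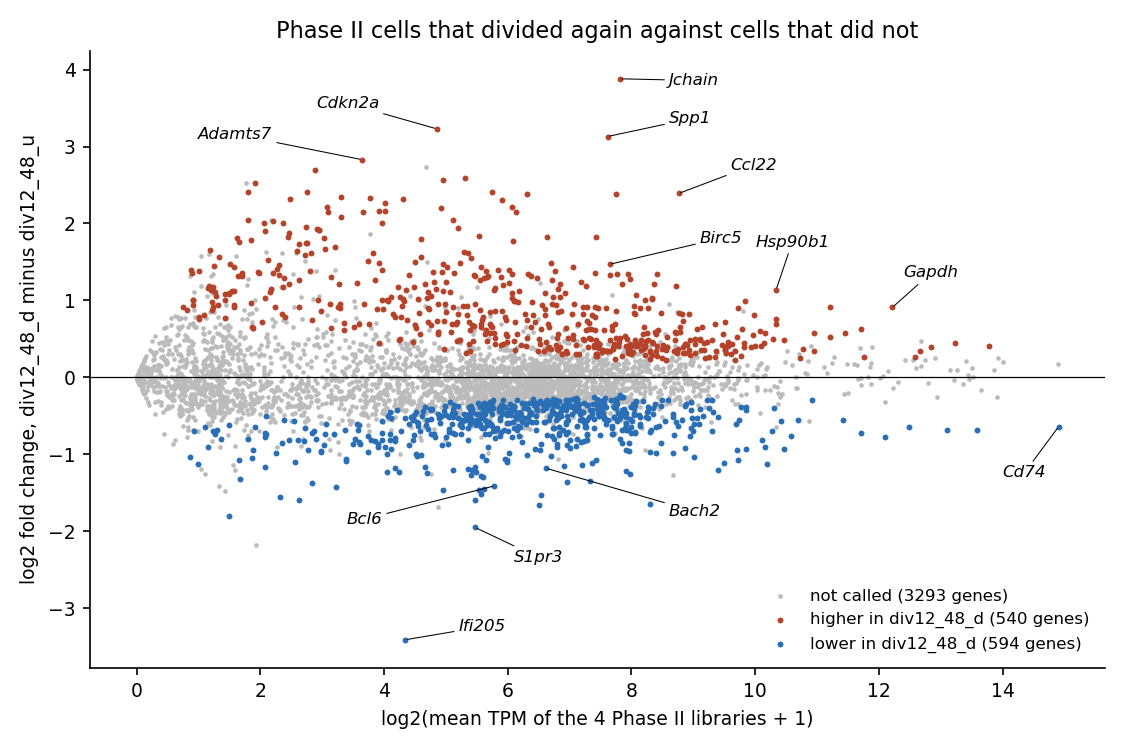
Each point is 1 of 4427 genes, placed by its mean level in the 4 Phase II libraries (log2 scale) and its log2 fold change, div12_48_d minus div12_48_u; red points were called higher (540 genes), blue points lower (594 genes). The rises reach 3.88 with Jchain, while Ifi205 at -3.41 is the 1 called gene at least 4-fold lower.

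Birc5 RNA was 2.76-fold higher in cells that had divided again. The gene, on chromosome 11 from 117849237 to 117855743 (GRCm38.p6), stood at 317 and 272 TPM in div12_48_d libraries, against 113 and 98.5 TPM in div12_48_u libraries. The groups did not overlap, and the difference was 1.47 ± 0.15 (limma, adjusted p = 7.53e-04). It was called under all 21 alternatives tried, with adjusted p from 4.51e-04 to 0.0230. The table lists Birc5 with 2 transcripts. The one that starts at position 117849251 had 286 and 247 TPM in div12_48_d, against 92.8 and 87.8 TPM in div12_48_u. The one that starts at position 117849319 had 30.9 and 25.0 TPM in div12_48_d, against 20.5 and 10.8 TPM in div12_48_u. Values of transcripts that share exons are estimates. Both transcripts were higher in each div12_48_d library than in either div12_48_u library, and most Birc5 RNA was listed under the first.

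Aurkb and Incenp, which encode partners of survivin, were higher too. Of 7 planned genes of the chromosomal passenger complex 4 were tested, Birc5 itself among them. Of these 4 genes 3 rose and 0 fell, with a median of 0.99 that includes Birc5. Aurkb, the Aurora B kinase, had 149.8 and 158 TPM in div12_48_d, against 85.9 and 63.3 TPM in div12_48_u (1.05 ± 0.24, adjusted p = 0.0147). Incenp, the scaffold that activates Aurora B, had 199.6 and 206 TPM in div12_48_d, against 128 and 88.3 TPM in div12_48_u (0.92 ± 0.23, adjusted p = 0.0226). The fourth member, the related kinase gene Aurkc, was near the filter at 2.16 and 1.11 TPM in div12_48_d, against 3.60 and 3.07 TPM in div12_48_u, and was not called (-0.75 ± 0.26, adjusted p = 0.0729), although quantile normalization called it lower. The calls of Aurkb and Incenp were lost without d1, d2 or u2, each a fit that leaves a lone library in a group. The differences were then 1.09, 1.01 and 0.83 for Aurkb and 0.94, 0.90 and 0.66 for Incenp.

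The genes that carry a cell into and through mitosis were higher in cells that had divided again. All 9 tested genes of the G2/M list, of 18 planned, rose, with a median of 1.32 beside -0.08 over all tested genes. Fewer of the 9 were called when any Phase II library was left out, each a fit with a lone library in a group. Ccnb1, a B-type cyclin that activates CDK1 for entry into mitosis, had 173 and 132 TPM in div12_48_d, against 65.3 and 43.2 TPM in div12_48_u (1.49 ± 0.22, adjusted p = 0.00341). Its relative Ccnb2 had 199 and 187 TPM in div12_48_d, against 85.3 and 58.1 TPM in div12_48_u (1.44 ± 0.17, adjusted p = 0.00139). Cdk1, the kinase itself, had 74.1 and 62.3 TPM in div12_48_d, against 27.7 and 21.9 TPM in div12_48_u (1.43 ± 0.16, adjusted p = 0.00111). In each of these genes both div12_48_d libraries stood above both div12_48_u libraries, and u2 was the lowest of the 4. Nek2, a kinase that separates centrosomes, had 73.6 and 68.1 TPM in div12_48_d, against 33.5 and 21.1 TPM in div12_48_u (1.38 ± 0.25, adjusted p = 0.00682). Its call was lost without d1 (adjusted p = 0.0562). Mki67, a marker of proliferating cells, had 491 and 478 TPM in div12_48_d, against 231 and 157 TPM in div12_48_u (1.34 ± 0.21, adjusted p = 0.00387).

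The spindle checkpoint, which delays anaphase until every chromosome is attached, was represented by 4 tested genes of 16 planned, of which 3 rose and 0 fell (median 1.29). The checkpoint kinase genes Ttk and Bub1 rose by 1.37 ± 0.23 (adjusted p = 0.00529) and by 1.32 ± 0.21 (adjusted p = 0.00394). Bub1b, whose protein inhibits the anaphase-promoting complex, had 156 and 139 TPM in div12_48_d, against 70.5 and 52.3 TPM in div12_48_u (1.26 ± 0.19, adjusted p = 0.00321). These 3 calls held without each Phase II library. Of 11 tested genes of the spindle and kinetochore 9 rose and 0 fell (median 0.92). Tpx2, which targets Aurora A to the spindle, had 134 and 116 TPM in div12_48_d, against 59.2 and 43.2 TPM in div12_48_u (1.29 ± 0.18, adjusted p = 0.00286). Genes of the cleavage machinery at the end of mitosis were higher as well. Kif23, a kinesin of the central spindle, had 136 and 126 TPM in div12_48_d, against 73.2 and 50.8 TPM in div12_48_u (1.09 ± 0.19, adjusted p = 0.00578). Ect2, which activates RhoA at the cleavage furrow, rose by 1.12 ± 0.20 (adjusted p = 0.00631), and Anln, the actin-binding protein anillin, by 1.04 ± 0.19 (adjusted p = 0.00703). Without d1 the calls of Ect2 (adjusted p = 0.0567) and Anln (adjusted p = 0.0638) were lost and 2 of the 11 genes were called. The count was 5 without d2 and 4 without u2.

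Among 5 tested genes of condensin, cohesin and topoisomerase, which shape and hold chromosomes, 4 rose and 0 fell (median 0.37). Ncapg2, a subunit of condensin II, had 69.2 and 60.3 TPM in div12_48_d, against 31.1 and 22.1 TPM in div12_48_u (1.27 ± 0.17, adjusted p = 0.00219). The SMC genes, shared backbones of these rings, differed by far less: Smc4 by 0.40 ± 0.09, Smc3 by 0.37 ± 0.10 and Smc1a by 0.31 ± 0.08 (adjusted p = 0.0145, 0.0298 and 0.0272). Without d1, d2 or u2 none of these 3 was called (adjusted p between 0.0609 and 0.171), and without u1 the calls of Smc3 (0.0600) and Smc1a (0.0925) were lost.

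Promoters of mitotic genes are known for a cell cycle genes homology region (CHR), an element bound by the MuvB complex that silences them in resting cells, and for CCAAT boxes, bound by NF-Y. Promoters of replication genes are known for E2F sites. RefSeq sequences of 300 bases (GRCm38.p6, 250 before to 50 after a start site) were searched on both strands for TTTGAA or TTCGAA (CHR), CCAAT, and TTCCCGC or TTGGCGC (E2F). Shown are Birc5 (chr11:117848987-117849286, plus strand) and the mitotic genes Ccnb1 (chr13:100786437-100786736, minus strand), Ccnb2 (chr9:70421505-70421804, minus strand), Cdk1 (chr10:69352863-69353162, minus strand) and Nek2 (chr1:191821223-191821522, plus strand), the called genes of the passenger and G2/M lists with the largest changes. Each reads 5′ to 3′ along its gene, with matches on either strand in capitals.
Birc5: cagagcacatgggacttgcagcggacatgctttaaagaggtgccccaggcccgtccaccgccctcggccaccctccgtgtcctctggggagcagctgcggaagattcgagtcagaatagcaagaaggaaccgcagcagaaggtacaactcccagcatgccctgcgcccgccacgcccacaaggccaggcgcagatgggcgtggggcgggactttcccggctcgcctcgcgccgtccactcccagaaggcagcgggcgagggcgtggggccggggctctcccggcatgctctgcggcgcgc
Ccnb1: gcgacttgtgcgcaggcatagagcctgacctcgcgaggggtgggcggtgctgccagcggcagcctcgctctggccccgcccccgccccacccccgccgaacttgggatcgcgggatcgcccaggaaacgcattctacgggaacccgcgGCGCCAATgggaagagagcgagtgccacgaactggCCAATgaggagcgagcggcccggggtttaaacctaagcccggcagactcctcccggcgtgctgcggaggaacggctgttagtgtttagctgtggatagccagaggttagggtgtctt
Ccnb2: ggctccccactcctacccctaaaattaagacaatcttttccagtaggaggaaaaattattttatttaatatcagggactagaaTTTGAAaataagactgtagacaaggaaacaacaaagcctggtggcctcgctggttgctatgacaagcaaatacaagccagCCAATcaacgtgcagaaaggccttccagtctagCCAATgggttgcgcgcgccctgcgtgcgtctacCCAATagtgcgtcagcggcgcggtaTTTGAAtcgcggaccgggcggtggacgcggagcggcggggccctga
Cdk1: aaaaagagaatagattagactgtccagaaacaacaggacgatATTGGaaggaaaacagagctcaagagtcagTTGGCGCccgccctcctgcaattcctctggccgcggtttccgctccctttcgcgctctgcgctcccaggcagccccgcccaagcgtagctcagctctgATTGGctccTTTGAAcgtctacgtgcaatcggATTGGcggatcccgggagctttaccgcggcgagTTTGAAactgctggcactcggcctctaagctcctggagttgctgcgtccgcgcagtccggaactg
Nek2: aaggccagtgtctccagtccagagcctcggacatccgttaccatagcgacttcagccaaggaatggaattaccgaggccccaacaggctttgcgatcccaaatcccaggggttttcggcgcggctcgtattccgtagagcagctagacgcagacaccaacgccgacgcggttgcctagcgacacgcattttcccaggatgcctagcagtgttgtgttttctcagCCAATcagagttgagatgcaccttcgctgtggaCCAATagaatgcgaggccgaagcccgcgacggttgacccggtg
The Cdk1 window held TTTGAA at 71 and 15 bases before the start, CCAAT on the minus strand at 208, 80 and 48 bases before it, and TTGGCGC at 178 bases before it. The Ccnb2 window held 2 matches of TTTGAA and 3 of CCAAT, and the windows of Ccnb1 and Nek2 held 2 of CCAAT each. In Ccnb1 a minus-strand TTGGCGC overlapped the first CCAAT. None of these letters stood in the Birc5 window, which says nothing of the factors.

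Of the genes of the passenger, G2/M, checkpoint and spindle lists that rose, 24 in all, 19 had promoter entries, 21 in number. CHR letters stood in 16 of these 21 (76.2%), against 14.1% of 4526 promoters of tested genes and 19.2% of all 32851 promoters. CCAAT stood in 16 of 21 (76.2%), against 37.0% of promoters of tested genes, and the E2F letters in 5 of 21 (23.8%), against 497 of the 4526. The replication genes that rose had 23 promoters for 16 of 20 genes. CHR letters stood in 4 of these (17.4%), CCAAT in 16 (69.6%) and E2F letters in 9 (39.1%), and the sets were not tested against each other. These are counts of matches in short windows, and some genes have several promoters.

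**Figure D2:**
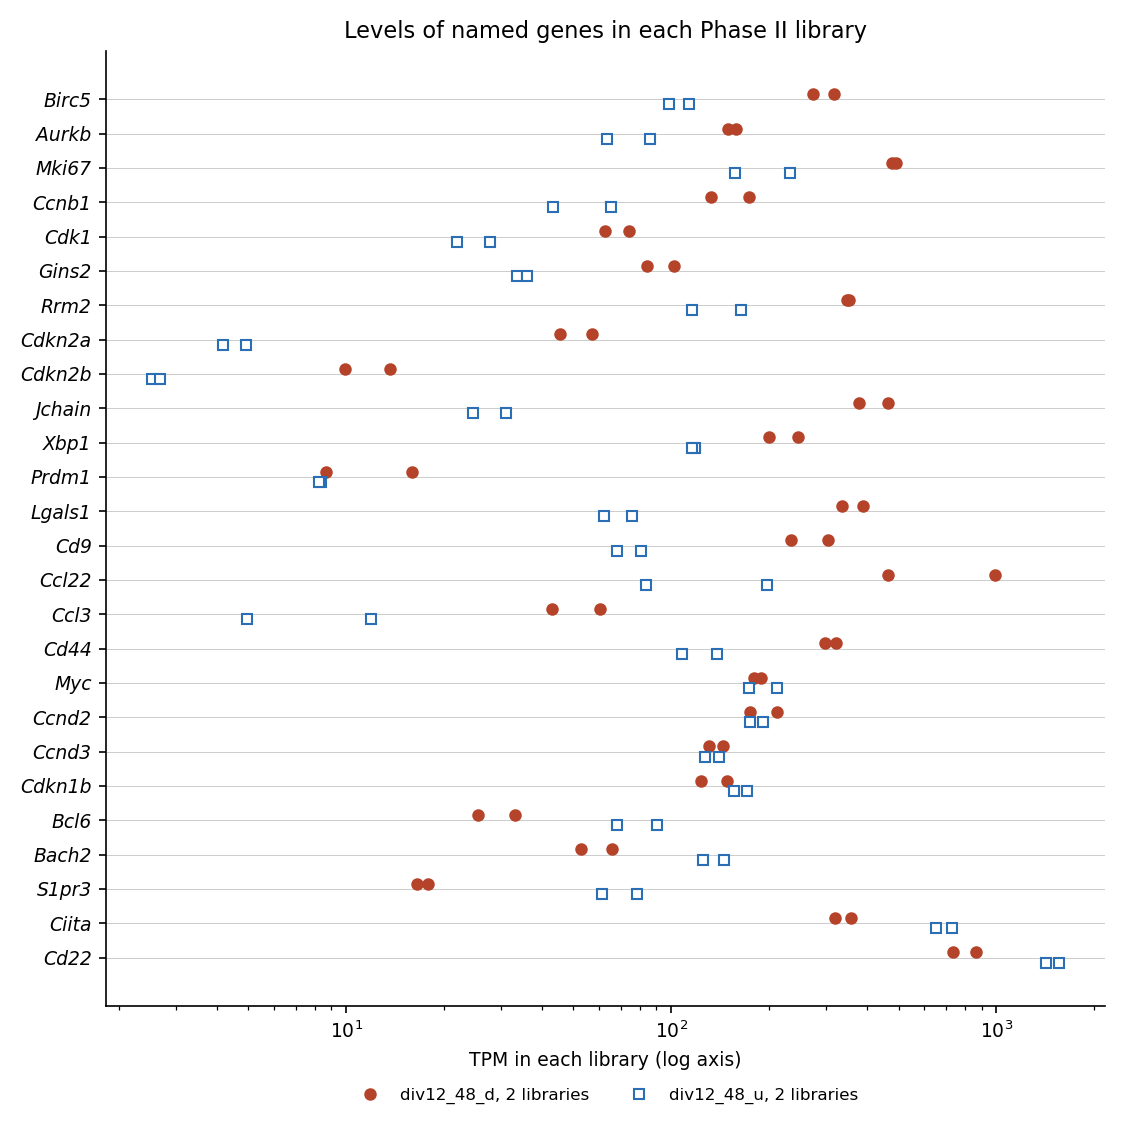
TPM (log axis) of 26 named genes in each Phase II library; filled circles are the 2 div12_48_d libraries and open squares the 2 div12_48_u libraries. Circles and squares of Birc5, Cdkn2a, Jchain and Lgals1 lie apart, while those of Myc, Ccnd2 and Ccnd3 overlap.

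Replication genes were higher in cells that had divided again, and few of these calls were lost when a Phase II library was left out. Of 10 tested genes of origin licensing and the replicative helicase 9 rose and 0 fell (median 1.01), and the count stayed at 9 without each Phase II library. Gins2, a subunit of the helicase complex, had 102 and 84.1 TPM in div12_48_d, against 33.5 and 36.1 TPM in div12_48_u (1.39 ± 0.12, adjusted p = 4.94e-04). Mcm5, a ring subunit of the helicase, had 379 and 336 TPM in div12_48_d, against 161 and 134 TPM in div12_48_u (1.28 ± 0.13, adjusted p = 8.53e-04). Gmnn, the licensing inhibitor geminin, had 168 and 151 TPM in div12_48_d, against 70.3 and 65.9 TPM in div12_48_u (1.21 ± 0.10, adjusted p = 4.77e-04). The libraries of the groups did not overlap in these genes, and Mcm3 rose by 1.07 ± 0.13 (adjusted p = 0.00148). Cdt1, the loading factor that geminin binds, was not called, at 82.7 and 88.4 TPM in div12_48_d, against 77.6 and 77.9 TPM in div12_48_u (0.14 ± 0.22, adjusted p = 0.692). Of 13 tested genes of the fork and of nucleotide synthesis 11 rose and 0 fell (median 0.90), and 10 or 11 were called without each Phase II library. Rrm2, a subunit of ribonucleotide reductase, had 347 and 352 TPM in div12_48_d, against 164 and 116 TPM in div12_48_u (1.34 ± 0.17, adjusted p = 0.00180). Uhrf1, which maintains DNA methylation behind the fork, rose by 1.21 ± 0.19 (adjusted p = 0.00411) and the DNA ligase Lig1 by 1.19 ± 0.16 (adjusted p = 0.00216). Tyms, thymidylate synthase, was not called at 193 and 192 TPM in div12_48_d, against 219 and 184 TPM in div12_48_u.

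In the G1/S list the inhibitors of cyclin-dependent kinases led the rises. Cdkn2a, which encodes the INK4A inhibitor of CDK4 and CDK6 and, from an upstream first exon, the p53 activator ARF, was 9.40-fold higher in cells that had divided again. It stood at 57.0 and 45.5 TPM in div12_48_d, against 4.17 and 4.91 TPM in div12_48_u (3.23 ± 0.26, adjusted p = 4.77e-04), and was called under all 21 alternatives. The transcript listed from the upstream start on chromosome 4 (position 89294653, minus strand) had 49.4 and 41.0 TPM in div12_48_d, against 3.81 and 2.02 TPM in div12_48_u. The one listed from the downstream start (position 89282192) had 7.57 and 4.49 TPM in div12_48_d, against 0.353 and 2.88 TPM in div12_48_u. These transcripts share exons and their values are estimates. Cdkn2b, the neighbouring INK4B inhibitor gene, had 13.6 and 9.93 TPM in div12_48_d, against 2.52 and 2.68 TPM in div12_48_u (1.81 ± 0.25, adjusted p = 0.00233). Cdkn1a, the inhibitor p21, had 13.0 and 10.1 TPM in div12_48_d, against 4.07 and 2.03 TPM in div12_48_u (1.67 ± 0.38, adjusted p = 0.0155), a call lost without d1 (adjusted p = 0.112) and without u2 (0.0911). The inhibitor p27, Cdkn1b, did not pass the test at 123 and 148 TPM in div12_48_d, against 156 and 171 TPM in div12_48_u (-0.27 ± 0.10, adjusted p = 0.0770), but was called lower without d2 (adjusted p = 0.0315).

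A promoter window near the upstream Cdkn2a start, chosen after its values were seen (chr4:89294570-89294869, minus strand, RefSeq, GRCm38.p6), holds TTCCCGC at 98 bases before the start, in capitals here.
Cdkn2a: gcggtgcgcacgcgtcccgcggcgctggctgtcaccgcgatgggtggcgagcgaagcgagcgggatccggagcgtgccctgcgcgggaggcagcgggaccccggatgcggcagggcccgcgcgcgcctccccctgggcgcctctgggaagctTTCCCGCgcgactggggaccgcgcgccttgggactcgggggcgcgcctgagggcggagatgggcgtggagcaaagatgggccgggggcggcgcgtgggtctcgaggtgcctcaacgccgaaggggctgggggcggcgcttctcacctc
None of the other letters searched stood in this window, and 6.81% of all promoters hold E2F letters.

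Of 20 tested genes of the G1/S list 11 rose and 0 fell (median 0.43). Cyclin E, the partner of CDK2 at the start of S phase, was among the rises. Ccne1 had 71.4 and 80.5 TPM in div12_48_d, against 35.1 and 31.6 TPM in div12_48_u (1.16 ± 0.30, adjusted p = 0.0234). Its call was lost without any 1 Phase II library (adjusted p between 0.0830 and 0.104). D-type cyclins, which link mitogens to CDK4 and CDK6, did not pass the test. Ccnd2 had 174 and 212 TPM in div12_48_d, against 191 and 174 TPM in div12_48_u (0.07 ± 0.14, adjusted p = 0.727), and Ccnd3 had 144 and 131 TPM in div12_48_d, against 139.8 and 127 TPM in div12_48_u (0.05 ± 0.14, adjusted p = 0.844). The groups overlapped in both genes. Without d1, d2, u1 or u2, 2, 5, 7 and 4 of the 20 genes were called higher. Called lower were 3 without d2, Cdkn1b among them, and 0 without each of the other libraries, while median-ratio scaling gave 1 fall and quantile normalization 2.

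DNA repair and checkpoint genes leaned higher, with 9 of 18 tested members up, 2 down and a median of 0.38. Rad54l, which acts in homologous repair, rose by 1.29 ± 0.24 (adjusted p = 0.00705) and the checkpoint kinase Chek1 by 1.24 ± 0.21 (adjusted p = 0.00462). The falls, named after their values were seen, were the damage-sensing kinases Atm (-0.48 ± 0.09, adjusted p = 0.00604) and Atr (-0.38 ± 0.11, adjusted p = 0.0387). Without d1 the call of Rad54l was lost (adjusted p = 0.0635), and 4 of the 18 genes were called higher and 0 lower. Of the falls 1 was called without each of the other libraries.

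Of 19 tested quiescence genes 4 fell and 1 rose (median -0.27), and of 15 tested genes of the immediate early and Myc list 4 fell and 0 rose (median -0.15). Calls in either direction came to 26.3% and 26.7%, against 25.6% of all genes, with more of them falls than over all genes (13.4% lower and 12.2% higher). Without d1 0 immediate early genes were called lower, without d2 4, and without u1 or u2 1 each. Kdm5b, a histone demethylase, had 21.2 and 27.1 TPM in div12_48_d, against 42.6 and 37.1 TPM in div12_48_u (-0.71 ± 0.16, adjusted p = 0.0145). Foxo1, a transcription factor that PI3K signals switch off, had 92.8 and 124 TPM in div12_48_d, against 179 and 154 TPM in div12_48_u (-0.63 ± 0.16, adjusted p = 0.0259). Tob1, an antiproliferative gene, differed by -0.55 ± 0.13 (adjusted p = 0.0192). The rise was Il7r, the interleukin-7 receptor, at 17.3 and 8.95 TPM in div12_48_d, against 5.13 and 1.83 TPM in div12_48_u (1.69 ± 0.41, adjusted p = 0.0185). All 4 calls were lost without d1, a fit that leaves a lone library in its group, with differences of -0.54, -0.42, -0.44 and 1.26. Fewer quiescence genes were called lower without d1, u1 or u2, and more without d2. Foxo1, Kdm5b and Tob1 were lost without u1 as well (adjusted p = 0.150, 0.0880 and 0.0615), and Foxo1, Tob1 and Il7r without u2 (0.0566, 0.0937 and 0.0951).

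Among the rapid response genes Dusp2, a phosphatase that switches off MAP kinases, had 352 and 379 TPM in div12_48_d, against 527 and 552 TPM in div12_48_u (-0.56 ± 0.10, adjusted p = 0.00703), a call lost without d1 (adjusted p = 0.0613). Zfp36, which destabilises cytokine RNAs, had 407 and 702 TPM in div12_48_d, against 1109 and 1159.6 TPM in div12_48_u (-1.08 ± 0.34, adjusted p = 0.0482). Dusp1 and Klf10 differed by -0.70 ± 0.21 (adjusted p = 0.0386) and -0.42 ± 0.11 (adjusted p = 0.0285). The calls of Zfp36, Dusp1 and Klf10 were weak, holding in 8, 9 and 11 of 21 alternatives, and without d1 their adjusted p was 0.297, 0.242 and 0.107. Zfp36 and Dusp1 were lost without u1 (adjusted p = 0.157 and 0.0856) and u2 (0.158 and 0.167), and Klf10 without d2, u1 or u2 (0.117, 0.0721 and 0.106). The immediate early list had 0 falls without d1 and 1 without u1 or u2. Myc, the growth regulator that sets how often stimulated B cells divide, was not called, at 189 and 180.2 TPM in div12_48_d, against 212 and 173 TPM in div12_48_u (-0.05 ± 0.35, adjusted p = 0.938). Its groups overlapped, and its error is wide. The fit pools spread over all 10 libraries, and the naive ones stood far apart at 1028 and 429 TPM.

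Jchain had the largest rise of any named gene. It encodes the joining chain of secreted IgM and IgA and stood 14.7-fold higher, at 378 and 464 TPM in div12_48_d, against 24.5 and 31.1 TPM in div12_48_u (3.88 ± 0.43, adjusted p = 0.00104). Of 11 tested plasma cell genes 4 rose and 0 fell (median 0.46). Xbp1, the transcription factor that builds the secretory apparatus, had 200.4 and 246 TPM in div12_48_d, against 118 and 116 TPM in div12_48_u (0.92 ± 0.12, adjusted p = 0.00203). Hsp90b1, an endoplasmic reticulum chaperone, had 1777 and 1787 TPM in div12_48_d, against 829 and 784 TPM in div12_48_u (1.14 ± 0.07, adjusted p = 3.15e-04). Prdm1, the regulator BLIMP-1 that commits B cells to the plasma cell fate, did not pass the test, at 8.69 and 15.9 TPM in div12_48_d, against 8.38 and 8.26 TPM in div12_48_u (0.46 ± 0.38, adjusted p = 0.416). Sdc1, the plasma cell surface protein CD138, had 7.05 and 19.5 TPM in div12_48_d, against 10.3 and 29.5 TPM in div12_48_u, and the groups overlapped (adjusted p = 0.475). Tnfrsf17, the survival receptor BCMA, was at 0.834 and 2.60 TPM in div12_48_d and listed at 0 in both div12_48_u libraries (adjusted p = 0.0441). That call held in 6 of 20 alternatives in which it was tested and was lost without d1, d2, u1 or u2 (adjusted p = 0.0509, 0.217, 0.154 and 0.136). The call of Xbp1 was lost with the most abundant transcript of each gene in place of the sum (adjusted p = 0.0641).

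Germinal centre genes moved both ways, with 4 of 14 tested members higher, 5 lower and a median of 0.02. Bcl6, the repressor that defines germinal centre B cells, had 25.4 and 33.0 TPM in div12_48_d, against 90.1 and 68.1 TPM in div12_48_u (-1.41 ± 0.27, adjusted p = 0.00824). Lmo2, a transcriptional cofactor, had 147 and 151 TPM in div12_48_d, against 352 and 356 TPM in div12_48_u (-1.25 ± 0.11, adjusted p = 4.94e-04). Mef2b, a transcription factor known to act on Bcl6, had 249.5 and 232 TPM in div12_48_d, against 125 and 69.6 TPM in div12_48_u (1.36 ± 0.37, adjusted p = 0.0309). The falls include the defining repressor. The call of Bcl6 was lost without d1 (adjusted p = 0.0720) or u1 (0.0604) and that of Mef2b without d1, d2 or u2 (0.153, 0.0863 and 0.168), and without d1, d2 or u2 the list had 1, 2 and 1 rises. Without u1 it had 3 falls.

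Genes known from B1 and other innate-like B cells were mostly higher. Of 19 tested members 13 rose and 0 fell, with a median of 1.19, and 10 to 12 were called without each Phase II library. Lgals1, the glycan-binding protein galectin-1, had 388 and 334 TPM in div12_48_d, against 75.6 and 62.1 TPM in div12_48_u (2.38 ± 0.21, adjusted p = 5.25e-04). Zbtb32, a repressor known to limit responses of B1 and memory cells, had 83.7 and 114 TPM in div12_48_d, against 21.2 and 16.9 TPM in div12_48_u (2.31 ± 0.25, adjusted p = 9.98e-04). Anxa2, a membrane-binding annexin, had 24.0 and 26.7 TPM in div12_48_d, against 4.44 and 5.33 TPM in div12_48_u (2.16 ± 0.19, adjusted p = 5.24e-04). All 3 are genes whose div12_48_d libraries stood far above either div12_48_u library. Ctla4, an inhibitory receptor best known from T cells, had 10.6 and 20.6 TPM in div12_48_d, against 1.42 and 2.95 TPM in div12_48_u (2.35 ± 0.48, adjusted p = 0.0104), and was lost without d2 (adjusted p = 0.0580) or u1 (0.0705). Cd5, a surface brake on antigen receptor signals in B1 cells and a T cell marker as well, had 70.4 and 74.7 TPM in div12_48_d, against 28.5 and 28.5 TPM in div12_48_u (1.32 ± 0.11, adjusted p = 4.94e-04). Cd9, a tetraspanin of marginal zone, B1 and plasma cells, had 234 and 304 TPM in div12_48_d, against 68.0 and 80.7 TPM in div12_48_u (1.83 ± 0.14, adjusted p = 4.77e-04).

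Genes of resting B cells and of antigen presentation were lower in cells that had divided again. Of 20 tested members of the resting B cell list 9 fell and 0 rose (median -0.41), with 7 to 10 called lower without each Phase II library. Bach2, a repressor that holds back plasma cell differentiation, had 52.8 and 65.6 TPM in div12_48_d, against 145 and 125 TPM in div12_48_u (-1.18 ± 0.15, adjusted p = 0.00198). Fcer2a, the low-affinity IgE receptor CD23, had 1081 and 865 TPM in div12_48_d, against 2089 and 1628 TPM in div12_48_u (-0.93 ± 0.13, adjusted p = 0.00286). Cd22, an inhibitory co-receptor, had 736 and 865 TPM in div12_48_d, against 1562 and 1419 TPM in div12_48_u (-0.90 ± 0.12, adjusted p = 0.00198). Ebf1, a founding transcription factor of the B lineage, differed by -0.80 ± 0.13 (adjusted p = 0.00385). Some other lineage genes did not pass the test. These include Pax5 and Cd79a (adjusted p = 0.166 and 0.0654).

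All 7 tested genes of MHC class II presentation fell, with a median of -0.68 and 5 or 6 called without each Phase II library. Ciita, the master activator of these genes, had 356 and 319 TPM in div12_48_d, against 731 and 653 TPM in div12_48_u (-1.03 ± 0.10, adjusted p = 7.39e-04). The chains H2-Ab1 and H2-Aa, which together form the I-A molecule, differed by -0.69 ± 0.10 (adjusted p = 0.00341) and -0.68 ± 0.13 (adjusted p = 0.00835). H2-DMb1, part of the peptide exchanger H2-DM, differed by -0.76 ± 0.11 (adjusted p = 0.00278). The invariant chain Cd74, the most abundant of the 7, had 22672 and 25317 TPM in div12_48_d, against 38907 and 35912 TPM in div12_48_u. The call of H2-Aa was lost without u2 (adjusted p = 0.0513).

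**Figure D3:**
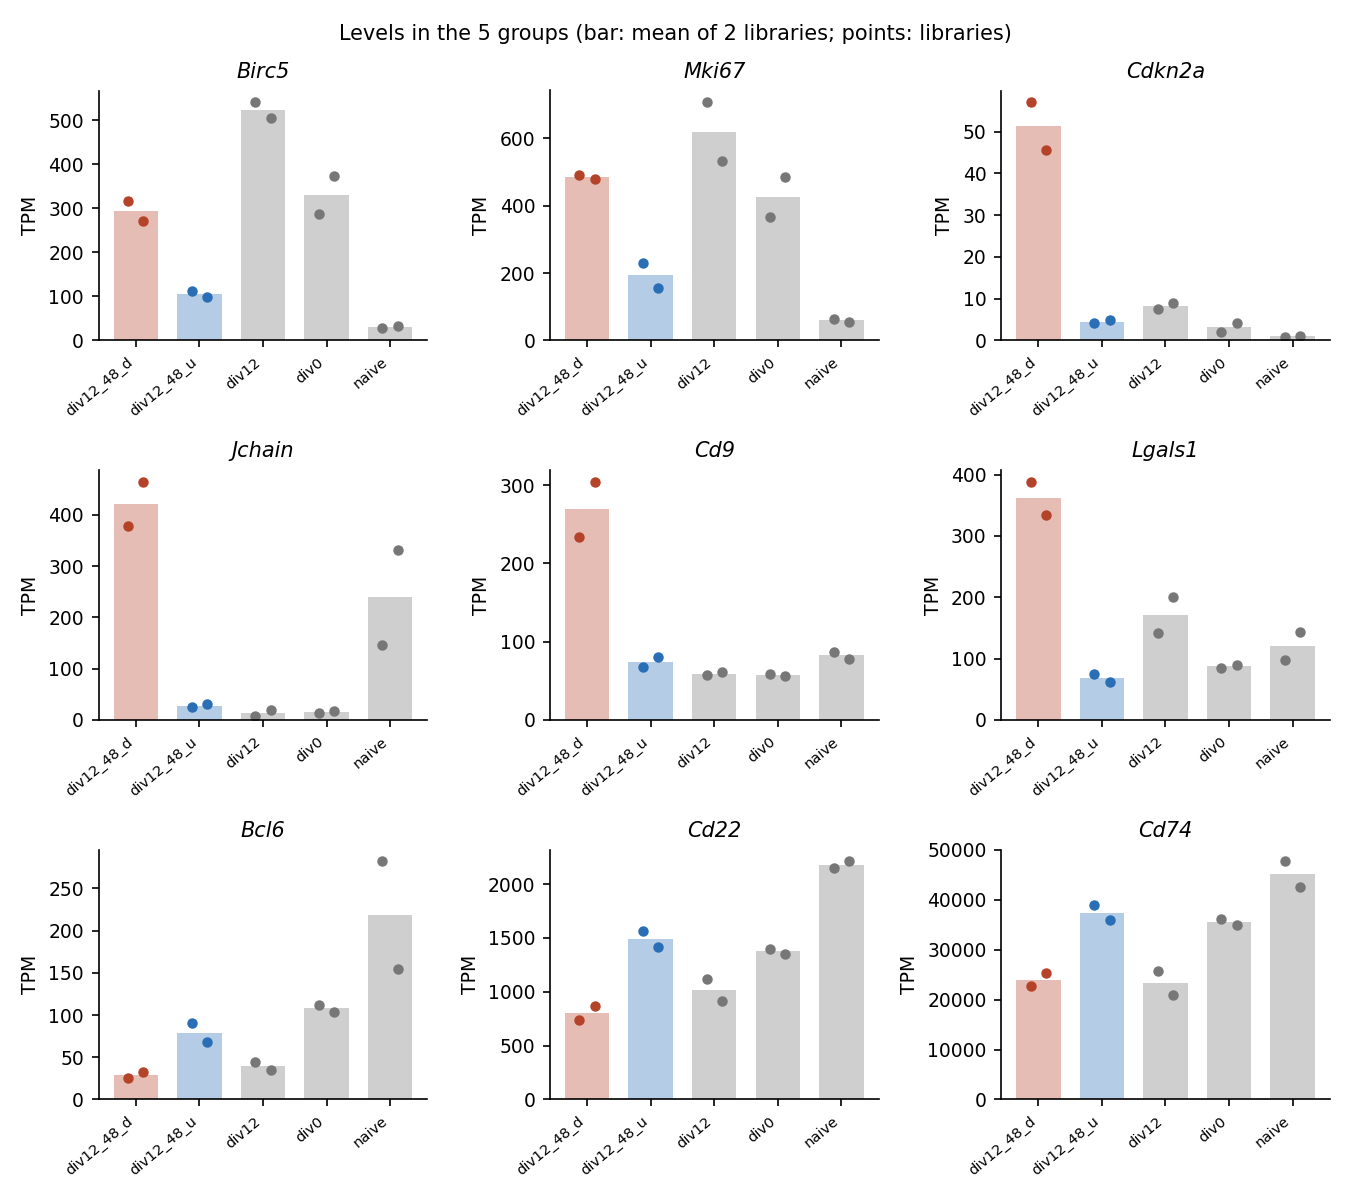
Levels of 9 genes (TPM, linear axes from 0) in the 5 groups, with bars at the mean of 2 libraries and a point for each library. Birc5 and Mki67 were lower in both Phase II groups than in div12; Cdkn2a, Cd9 and Lgals1 were highest in div12_48_d; Cd22 and Cd74 were highest in naive libraries.

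Secreted signals of the chemokine family were among the largest rises. Of 25 tested cytokine and chemokine genes 11 rose and 2 fell (median 0.57). Ccl3 and Ccl4, inflammatory chemokines, moved together. Ccl3 had 60.4 and 42.9 TPM in div12_48_d, against 11.9 and 4.94 TPM in div12_48_u (2.57 ± 0.34, adjusted p = 0.00216), and Ccl4 had 65.3 and 69.3 TPM in div12_48_d, against 10.5 and 10.2 TPM in div12_48_u (2.59 ± 0.50, adjusted p = 0.00800). Ccl22 and Ccl17, which attract T cells through CCR4 and belong to the CD40 response of B cells, rose as well. Ccl22 had 988 and 463 TPM in div12_48_d, against 197 and 83.6 TPM in div12_48_u (2.39 ± 0.44, adjusted p = 0.00692), and replicate 1 was the higher library in both groups. Ccl17 averaged 12.7 ± 2.34 TPM in div12_48_d and 2.39 ± 2.06 TPM in div12_48_u (SD, n = 2 libraries each), without overlap (2.15 ± 0.50, adjusted p = 0.0175). Ccl1, a ligand of CCR8, had 39.4 and 23.2 TPM in div12_48_d, against 10.5 and 2.39 TPM in div12_48_u (2.32 ± 0.61, adjusted p = 0.0264). Several of these calls were lost when a library was left out. The differences without d1 were 2.63 for Ccl4, 1.84 for Ccl22, 2.32 for Ccl17 and 1.95 for Ccl1. Without d1 the adjusted p was 0.0557 for Ccl4, 0.0562 for Ccl22, 0.0762 for Ccl17 and 0.170 for Ccl1, and 2 of the 25 genes were called higher. Without d2 or u2 Ccl17 (0.0772 and 0.0934) and Ccl1 (0.0516 and 0.132) were lost, and the list had 5 and 7 rises. Without u1 it had 10. Falls numbered 0 without d1 or u1 and 1 without d2 or u2.

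Homing receptors moved both ways, with 5 of 20 tested members higher and 7 lower (median -0.09). Ccr10, a chemokine receptor of IgA-secreting cells, had 14.1 and 9.56 TPM in div12_48_d, against 1.32 and 0.668 TPM in div12_48_u (2.69 ± 0.28, adjusted p = 8.75e-04). Cxcr3, the receptor for interferon-induced chemokines, had 7.97 and 6.56 TPM in div12_48_d, against 1.28 and 0.826 TPM in div12_48_u (2.01 ± 0.24, adjusted p = 0.00123). Cd44, the hyaluronan receptor of activated lymphocytes, had 321 and 298 TPM in div12_48_d, against 138 and 108 TPM in div12_48_u (1.34 ± 0.15, adjusted p = 9.98e-04). The largest fall was S1pr3, a receptor for sphingosine-1-phosphate, at 16.5 and 17.9 TPM in div12_48_d, against 61.0 and 78.4 TPM in div12_48_u (-1.95 ± 0.22, adjusted p = 0.00106). Without u1 or u2, 3 of the 20 were called higher, and without d1, u1 or u2, 3 were called lower, while the 4 genes named here were called in every case.

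NF-kB and CD40 target genes did not move as one, with 6 of 25 tested members higher, 5 lower and a median of -0.04 that turned to 0.03 with median-ratio scaling. Beside Ccl22 and Ccl17, the costimulatory ligand Cd80 had 98.3 and 91.3 TPM in div12_48_d, against 51.0 and 44.2 TPM in div12_48_u (0.98 ± 0.17, adjusted p = 0.00596). Cd40, the receptor that the culture antibody binds, had 205 and 148 TPM in div12_48_d, against 319.7 and 245 TPM in div12_48_u (-0.68 ± 0.17, adjusted p = 0.0208). Its call was lost without d2 (adjusted p = 0.0948) or u1 (0.134) and with the most abundant transcript alone (0.353), and that of Cd80 without d1 (0.0531). Rises numbered 1 without d1 and 2 without d2 or u2, and falls numbered 2 without d1, 3 without d2 and 1 without u1.

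In the BCL2 family, which sets the threshold for apoptosis, 1 of 14 tested genes rose and 2 fell (median -0.01, turning to 0.06 with median-ratio scaling), a share below the 25.6% called over all genes. Bcl2, which blocks apoptosis, had 69.2 and 82.5 TPM in div12_48_d, against 120.0 and 108 TPM in div12_48_u (-0.58 ± 0.13, adjusted p = 0.0147). Bmf, which promotes it, had 25.9 and 31.8 TPM in div12_48_d, against 52.1 and 51.0 TPM in div12_48_u (-0.82 ± 0.15, adjusted p = 0.00675). Bcl2l1, the survival gene of BCL-XL, had 61.0 and 52.7 TPM in div12_48_d, against 42.3 and 30.0 TPM in div12_48_u (0.66 ± 0.20, adjusted p = 0.0469). Without d1 all 3 calls were lost (adjusted p = 0.115, 0.0607 and 0.240), and Bcl2l1 was called in 10 of 21 alternatives. Bcl2 was lost without u1 (0.0919), and Bcl2l1 without d2 or u2 (0.0828 and 0.233). Of 17 tested p53 targets 3 rose and 1 fell (median -0.07, turning to 0.01 with median-ratio scaling), and these 23.5% are near the 25.6% called over all genes. Beside Cdkn1a these were the stress gene Gadd45b (0.63 ± 0.15, adjusted p = 0.0186), Ccng1, a cyclin G (0.46 ± 0.14, adjusted p = 0.0469), and Sesn3, a sestrin (-0.61 ± 0.11, adjusted p = 0.00719). Without d1, 0 of the 17 were called (adjusted p = 0.104, 0.224 and 0.0630 for these 3), and Ccng1 and Gadd45b were lost without any 1 Phase II library (adjusted p between 0.0609 and 0.224) and Sesn3 without u1 (0.0529). Mdm2 and Trp53 were not called (adjusted p = 0.641 and 0.814).

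Metabolic lists leaned upward. Of 40 tested genes of oxidative phosphorylation 22 rose and 0 fell, by small amounts (median 0.32, largest 0.60). Atp5a1, the catalytic-core alpha subunit of ATP synthase, had 1344 and 1267 TPM in div12_48_d, against 874 and 852 TPM in div12_48_u (0.60 ± 0.07, adjusted p = 0.00128). Ndufa4, Atp5g1 and Atp5k, small subunits of the chain and the synthase, rose by 0.55 ± 0.12, 0.53 ± 0.09 and 0.53 ± 0.13 (adjusted p = 0.0122, 0.00533 and 0.0190). The count was lower when d1, u1 or u2 was left out, each a fit with a lone library in a group. Ndufa4 was lost without d1 or u1 (adjusted p = 0.0986 and 0.0830) and Atp5k without d1, u1 or u2 (0.116, 0.0694 and 0.0911). Of 21 tested glycolysis genes 7 rose and 2 fell (median 0.13). Gapdh, a central enzyme of the pathway, had 6649 and 5792 TPM in div12_48_d, against 3488 and 3141 TPM in div12_48_u (0.91 ± 0.11, adjusted p = 0.00128). Pdk1, a kinase that inhibits pyruvate dehydrogenase, had 24.0 and 27.5 TPM in div12_48_d, against 42.3 and 44.6 TPM in div12_48_u (-0.73 ± 0.11, adjusted p = 0.00342). The lactate transporter Slc16a1 (1.02 ± 0.28, adjusted p = 0.0326) and the hexokinase Hk2 (0.73 ± 0.22, adjusted p = 0.0446) were called in 12 and 9 of 21 alternatives. Without d1 they had adjusted p = 0.189 and 0.250, without d2 0.0656 and 0.0668 and without u2 0.160 and 0.222, and Slc16a1 was lost without u1 (0.0607). Of the 21 genes 2 were called higher without d1 and 4 without u2.

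Of 5 tested genes of serine and one-carbon metabolism 2 rose and 0 fell (median 0.22). Phgdh, the first enzyme of serine synthesis, had 596 and 550.2 TPM in div12_48_d, against 320.3 and 326 TPM in div12_48_u (0.82 ± 0.12, adjusted p = 0.00333), and the next, Psat1, rose by 0.82 ± 0.18 (adjusted p = 0.0138, lost without d1 at 0.108 and u2 at 0.0832). Of 18 tested lipid genes 3 rose and 1 fell (median 0.27), and these 22.2% are no more than the 25.6% called over all genes. The cholesterol enzymes Idi1 and Fdft1 rose by 0.86 ± 0.21 and 0.61 ± 0.17 (adjusted p = 0.0200 and 0.0300), and Scd1, a fatty acid desaturase, differed by -0.60 ± 0.18 (adjusted p = 0.0419). Without d1 these 3 were lost (adjusted p = 0.149, 0.194 and 0.216), and without u2 likewise (0.104, 0.155 and 0.104). Scd1 was lost without d2 (0.0796) and u1 (0.185) too.

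Genes of protein folding rose in larger numbers. Of 25 tested genes of the unfolded protein response and of chaperones 15 rose and 0 fell (median 0.40), with 6 called without d1 and 9 without u2. Beside Hsp90b1 and Xbp1, Sdf2l1 of the endoplasmic reticulum had 157 and 149.7 TPM in div12_48_d, against 67.1 and 69.7 TPM in div12_48_u (1.15 ± 0.12, adjusted p = 7.39e-04). Manf, a secreted stress factor, had 399 and 404 TPM in div12_48_d, against 217 and 214 TPM in div12_48_u (0.90 ± 0.09, adjusted p = 7.28e-04). Of 22 tested cytosolic ribosomal protein genes 4 rose and 0 fell (median 0.16), near the 12.2% called higher over all genes. These were Rpl28, Rps2, Rpl3 and Rpl7a, by 0.41 ± 0.08, 0.40 ± 0.09, 0.34 ± 0.08 and 0.27 ± 0.07 (adjusted p = 0.00872, 0.0142, 0.0185 and 0.0285). Without d1 none of the 22 was called (adjusted p = 0.0523, 0.112, 0.126 and 0.161 for these 4), and without u1 Rps2, Rpl3 and Rpl7a were lost (0.0675, 0.104 and 0.142). Rpl7a was lost without d2 too (0.0668) and Rps2 without u2 (0.0508). Ribosomal protein genes have many near-identical pseudogenes, which makes these values uncertain.

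**Figure D4:**
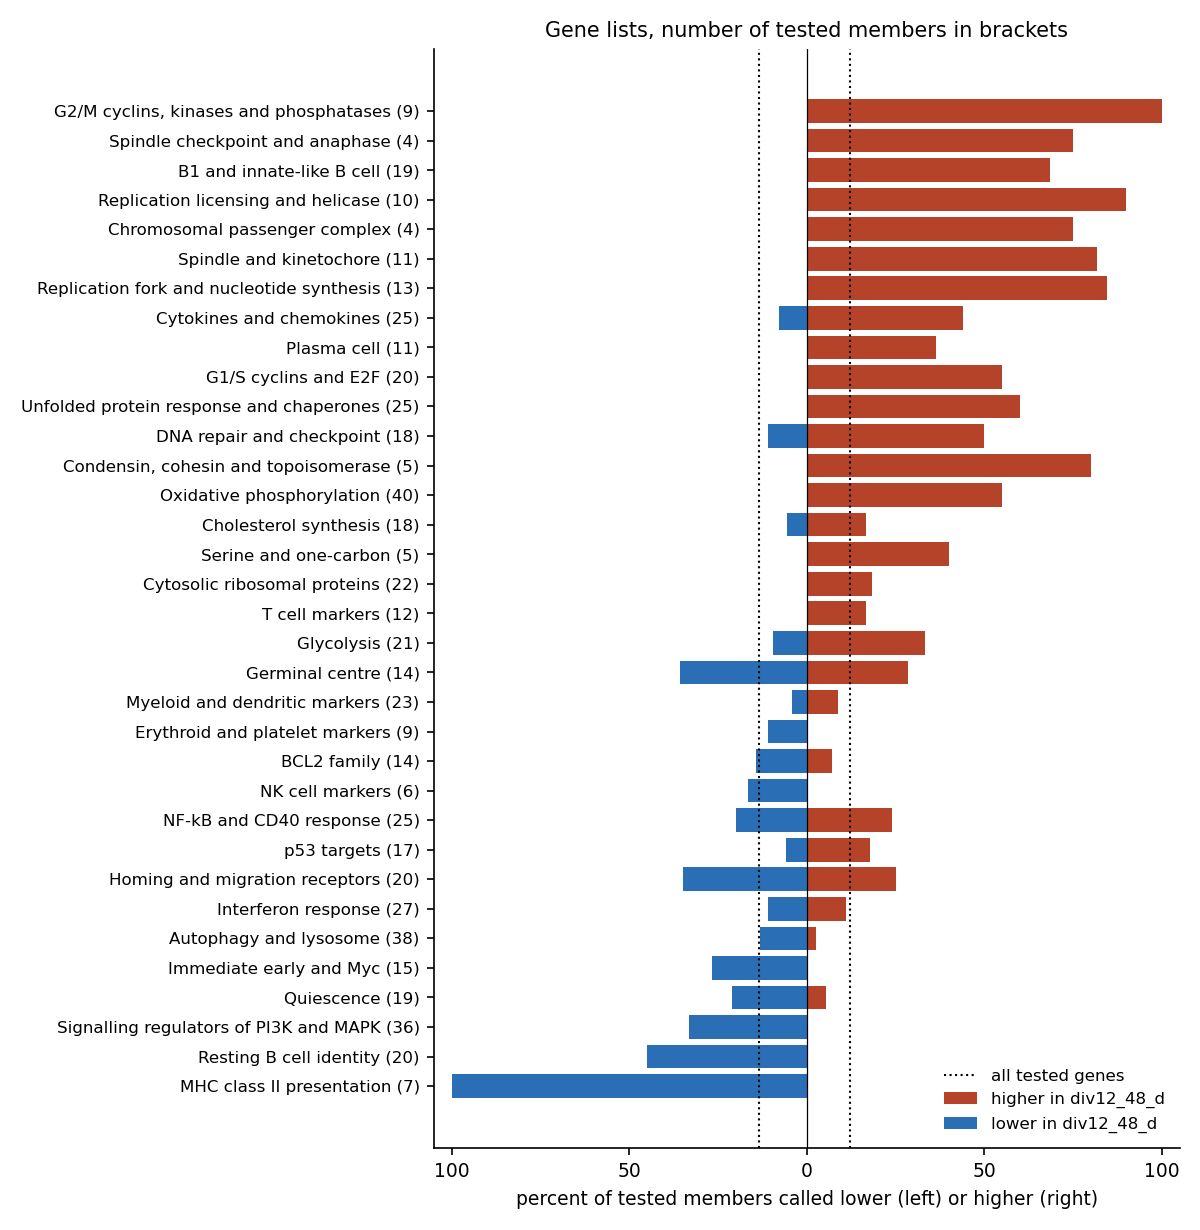
Percent of the tested members of each gene list that were called lower (left) or higher (right) in div12_48_d, with the number tested in brackets and lists ordered by their median change; dotted lines mark all tested genes (12.2% higher, 13.4% lower). Mitotic, replication and B1 lists reach far to the right, and MHC class II, signalling and resting B cell lists to the left.

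Of 36 tested regulators of PI3K and MAP kinase signalling 12 fell and 0 rose (median -0.32). Dusp6, the phosphatase that inactivates ERK, had 79.2 and 95.3 TPM in div12_48_d, against 163 and 157 TPM in div12_48_u (-0.88 ± 0.16, adjusted p = 0.00606, lost without d1 at 0.0562). Rictor, a core subunit of mTOR complex 2, had 34.6 and 37.7 TPM in div12_48_d, against 60.8 and 54.5 TPM in div12_48_u (-0.66 ± 0.11, adjusted p = 0.00495). Falls numbered 2 without d1, 4 without u1 and 7 without u2. The autophagy and lysosome list gave 1 rise and 5 falls in 38 tested genes (median -0.12), so that its share of falls was near that of all genes. Mcoln1, a calcium channel of lysosomes, had 84.0 and 99.5 TPM in div12_48_d, against 151 and 152 TPM in div12_48_u (-0.73 ± 0.10, adjusted p = 0.00271). Ctss, the protease that trims the invariant chain, differed by -0.56 ± 0.12 (adjusted p = 0.0127), Lamp1, a lysosomal membrane protein, by -0.52 ± 0.09 (adjusted p = 0.00589) and Npc2, which carries cholesterol, by 0.61 ± 0.13 (adjusted p = 0.0133). Lamp1 was lost without d1 (adjusted p = 0.0523), Ctss without d2 or u1 (0.0674 and 0.0846) and Npc2 without d1, d2 or u1 (0.0615, 0.0640 and 0.0865), and the list had 2 falls without d1 and 3 without u1 or u2.

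Interferon response genes were called at about the share of all genes, with 3 of 27 tested members higher and 3 lower (median -0.11). Samd9l, an antiviral gene, had 155 and 201 TPM in div12_48_d, against 298 and 339 TPM in div12_48_u (-0.85 ± 0.18, adjusted p = 0.0112). Ifitm2 (1.11 ± 0.29, adjusted p = 0.0244), Ifih1 (0.90 ± 0.23, adjusted p = 0.0252) and Oasl2 (-0.85 ± 0.23, adjusted p = 0.0311), which act against viruses as well, were the other named calls. Without d1, 0 of the 27 were called (adjusted p = 0.0892, 0.167, 0.143 and 0.150 in the order given), and without u2 likewise (0.0677, 0.118, 0.107 and 0.115). Without u1 Ifitm2, Ifih1 and Oasl2 were lost (0.0665, 0.0776 and 0.105), and without d2 the last 2 (0.0699 and 0.0907).

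Markers of other cell types differed widely in level. The share called either way was 25.6% over all tested genes. It was 13.0% for myeloid, 16.7% for T cell, 16.7% for NK cell and 11.1% for erythroid and platelet markers. Of 23 tested myeloid markers 2 rose and 1 fell, and 3 were at 0 in all 4 libraries, among them C1qa. Their summed level was 552 and 942 TPM in div12_48_d, against 912 and 1371 TPM in div12_48_u, with Apoe, a lipid carrier, as the largest contributor at 258 and 586 TPM in div12_48_d, against 693 and 1169 TPM in div12_48_u. Its fall (-1.21 ± 0.38, adjusted p = 0.0481) held in 5 of 21 alternatives and was lost without d1, u1 or u2 (adjusted p = 0.285, 0.0600 and 0.240). Hmox1, heme oxygenase, had 26.9 and 25.0 TPM in div12_48_d, against 5.11 and 4.13 TPM in div12_48_u (2.27 ± 0.48, adjusted p = 0.0115), lost without d1, u1 or u2 (0.0779, 0.0513 and 0.0633). The complement gene C1qb, at 2.54 and 2.40 TPM in div12_48_d, against 0.222 TPM and a listed 0 in div12_48_u, was called (adjusted p = 0.0481) in 7 of 21 alternatives and in none that left out a Phase II library (adjusted p between 0.132 and 0.192). Of 12 T cell markers 2 rose, Cd5 and Il7r, while Cd3e, Cd4 and Cd8a were not called, and the list summed to 651 and 794 TPM in div12_48_d, against 542 and 652 TPM in div12_48_u, mostly from Lck, a kinase of T and B1 cells. The 6 NK cell markers summed to 4.01 and 5.05 TPM in div12_48_d, against 6.28 and 7.46 TPM in div12_48_u, with Prf1, perforin, as the 1 fall (-0.57 ± 0.17, adjusted p = 0.0428), lost without any 1 Phase II library (adjusted p between 0.0704 and 0.234). The 9 erythroid and platelet markers summed to 32.0 and 34.3 TPM in div12_48_d, against 47.3 and 69.9 TPM in div12_48_u, and 1 fell. Of 3 tested stromal genes 0 were called, with Pecam1 at 188 and 217 TPM in div12_48_d, against 249 and 234 TPM in div12_48_u (adjusted p = 0.148), and Cdh5, an endothelial cadherin, at 2.22 and 1.64 TPM in div12_48_d, against 1.48 and 0.538 TPM in div12_48_u (adjusted p = 0.126, and called higher without u1 at 0.0444). The part of other cells in the results above was not tested.

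The remaining genes with the largest changes fall in no list. Spp1, the secreted phosphoprotein osteopontin, had 418 and 284 TPM in div12_48_d, against 44.4 and 33.2 TPM in div12_48_u (3.13 ± 0.31, adjusted p = 7.39e-04). Adamts7, a secreted metalloprotease, had 24.2 and 17.4 TPM in div12_48_d, against 3.08 and 1.24 TPM in div12_48_u (2.83 ± 0.29, adjusted p = 7.39e-04). Pdcd1, the inhibitory receptor PD-1, had 107 and 73.0 TPM in div12_48_d, against 19.4 and 12.9 TPM in div12_48_u (2.41 ± 0.31, adjusted p = 0.00202). All 3 kept their calls under all 21 alternatives, while groups without overlap were a condition of the rule that picked them. Kcnn4, a calcium-activated potassium channel of lymphocytes, had 117 and 147 TPM in div12_48_d, against 26.2 and 22.6 TPM in div12_48_u (2.38 ± 0.16, adjusted p = 3.82e-04).

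Among the falls, Ifi205, an interferon-inducible gene of a family of near-identical relatives whose reads may be shared, had 1.36 and 3.84 TPM in div12_48_d, against 27.3 and 44.6 TPM in div12_48_u (-3.41 ± 0.52, adjusted p = 0.00347). Satb1, an organiser of chromatin in lymphocytes, had 32.8 and 54.5 TPM in div12_48_d, against 119.5 and 155 TPM in div12_48_u (-1.66 ± 0.25, adjusted p = 0.00333). Icosl, the ligand through which B cells engage ICOS on T cells, had 172 and 129.9 TPM in div12_48_d, against 544 and 406 TPM in div12_48_u (-1.65 ± 0.19, adjusted p = 0.00111). No library of div12_48_d reached the level of any div12_48_u library in these genes, as the rule that picked them required. The glycosyltransferase Gcnt1 (-1.60 ± 0.16, adjusted p = 7.39e-04), the adaptor Pag1 (-1.53 ± 0.18, adjusted p = 0.00123) and the deubiquitinase Otud1 (-1.52 ± 0.16, adjusted p = 8.06e-04) fell by similar amounts. Emid1, a matrix protein gene, differed by -1.47 ± 0.12 (adjusted p = 4.77e-04), Slamf1, a receptor of lymphocyte contacts, by -1.46 ± 0.13 (adjusted p = 6.10e-04) and Ndrg1, a stress-responsive gene, by -1.45 ± 0.13 (adjusted p = 5.24e-04). Hdac11, a histone deacetylase, had 3.06 and 5.10 TPM in div12_48_d, against 10.2 and 14.9 TPM in div12_48_u (-1.43 ± 0.27, adjusted p = 0.00730), and was lost without d1 (adjusted p = 0.0629).

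The same question, divided against not divided, can be put to Phase I, with div12 against div0. The contrasts of the phases share no library but use the same estimate of spread, pooled over all 10 libraries. Calls in the phases are therefore not independent, and their overlap was not tested. In Phase I 163 genes (3.68%) were higher and 225 (5.08%) lower in divided cells. Of the genes that rose in Phase II 141 rose in Phase I too, which is 26.1% of the Phase II rises and 86.5% of the Phase I rises. Of those that fell 171 fell in Phase I too, 28.8% of the Phase II falls and 76.0% of the Phase I falls, and 1 gene, Hbb-b1, was called in opposite directions. A gene called in one phase and not in the other is not thereby shown to differ. The difference of the contrasts was therefore tested directly, and 0 genes passed it in limma (smallest adjusted p = 0.0539, with 438 genes at an unadjusted p under 0.05). This 0 stands close to the threshold. Alternatives called between 0 and 23 genes, 23 with median-ratio scaling (16 higher and 7 lower), 15 with a pseudocount of 5, and 11 without the naive libraries. Leaving out u1 gave 10 calls, and d1, u2 or div12 replicate 2 gave 2 each.

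For Birc5 the Phase II difference of 1.47 ± 0.15 stood beside a Phase I difference of 0.67 ± 0.15, from 540.0 and 505 TPM in div12, against 287 and 372 TPM in div0. The excess of 0.79 ± 0.21 was not called (adjusted p = 0.217). Birc5 levels were lower in both Phase II groups than in div12. Mki67 had 706 and 533 TPM in div12, against 366 and 484 TPM in div0 (0.54 ± 0.21, adjusted p = 0.133), and its excess in Phase II was 0.80 ± 0.30 (adjusted p = 0.382). Across the mitotic lists the median Phase I difference was 0.31 for the passenger complex, 0.52 for G2/M and 0.52 for the checkpoint, with 1, 1 and 0 genes called, while licensing genes had 0.68 and 9 of 10 called.

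The genes named by rule for the contrast between phases were not cell cycle genes. Jchain had 8.10 and 19.5 TPM in div12, against 14.1 and 16.6 TPM in div0, and the excess of its Phase II difference was 4.13 ± 0.61 (adjusted p = 0.0553). Cd9 had 57.1 and 61.0 TPM in div12, against 59.0 and 56.6 TPM in div0, with an excess of 1.80 ± 0.20 (adjusted p = 0.0539), and was called in 12 of 21 alternatives. In both genes the Phase I groups overlapped while div12_48_d stood above every other cultured library. Kcnn4 (excess 1.65 ± 0.23), Alpl, the alkaline phosphatase gene (2.38 ± 0.34), and Anxa2 (1.85 ± 0.27) had adjusted p = 0.0539 each, as Cd9 did. Alpl had 45.9 and 50.9 TPM in div12_48_d, against 11.9 and 7.92 TPM in div12_48_u, and 23.6 and 14.9 TPM in div12, against 19.6 and 23.4 TPM in div0. In the other direction stood Hbb-b1, a globin chain whose near-identical relatives may share its reads, with 21.2 and 19.8 TPM in div12_48_d, against 34.0 and 43.5 TPM in div12_48_u, and 20.0 and 25.4 TPM in div12, against 10.9 and 11.3 TPM in div0. Its excess was -1.84 ± 0.24 (adjusted p = 0.0539), and its Phase II call was lost without d1 (adjusted p = 0.0504) or u2 (0.0537). Dmxl1 (-0.87 ± 0.12, adjusted p = 0.0539), Ccr1, a chemokine receptor (-1.20 ± 0.19, adjusted p = 0.0581), Slamf1 (-1.26 ± 0.19, adjusted p = 0.0581) and Emid1 (-1.03 ± 0.17, adjusted p = 0.0615) followed. Dmxl1 had 67.9 and 69.4 TPM in div12_48_d, against 173 and 183 TPM in div12_48_u, a Phase II fall of 1.36 on the log2 scale (adjusted p = 3.15e-04), and Ccr1 had 104 and 97.6 TPM in div12_48_d, against 178 and 174 TPM in div12_48_u. Bcl6, by contrast, differed almost equally in both phases, by -1.41 ± 0.27 in Phase II and -1.42 ± 0.27 in Phase I. Phase, culture time and cell input moved together, and cannot be told apart in this difference.

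**Figure D5:**
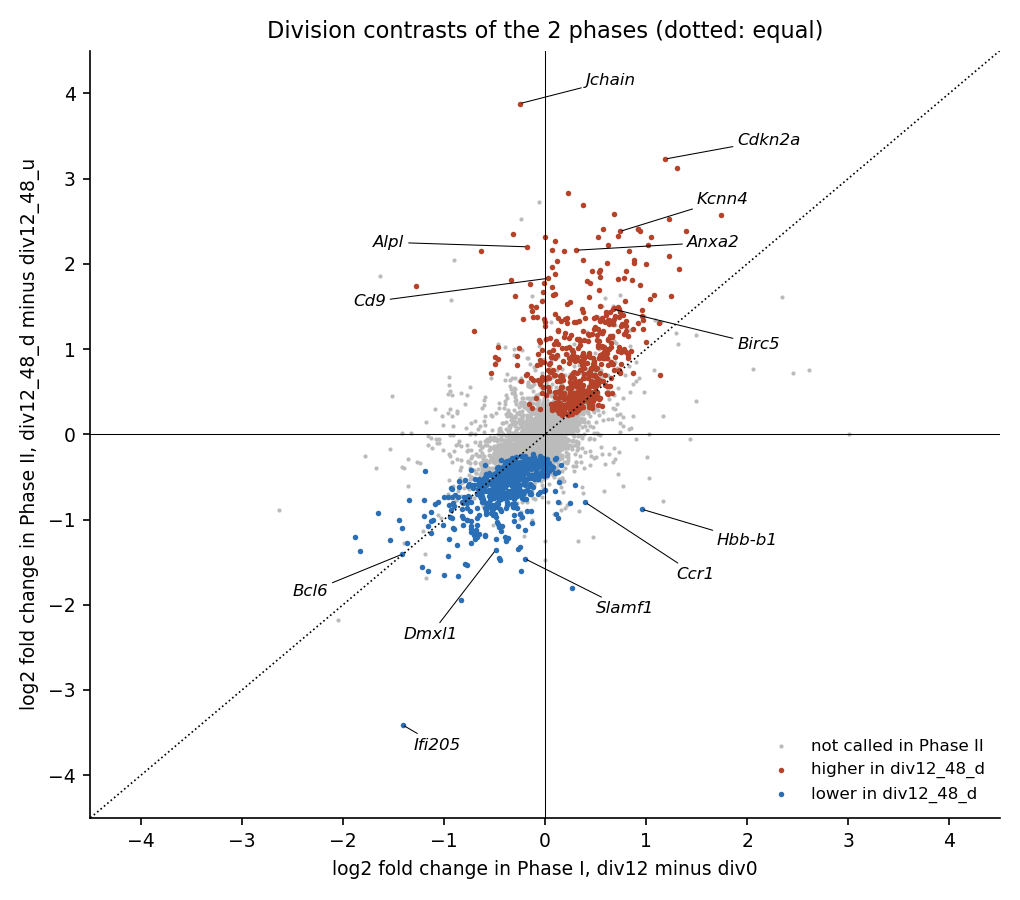
Log2 fold changes of 4427 genes in Phase I (horizontal, div12 minus div0) and Phase II (vertical, div12_48_d minus div12_48_u), with the dotted line marking equal change; red points were called higher and blue points lower in Phase II. Jchain, Cd9 and Alpl lie high above a Phase I change near 0, and Hbb-b1 has opposite signs in the phases.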

How the data were processed

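RNA of 10 libraries of mouse splenic B cells, 5 groups of 2, was sequenced from 100 ng of ribosome-depleted total RNA as 50 bp single-end reads, per the labels. Each Phase II library came from 500000 cells and each Phase I library from 1000000. The authors deposited TPM values by transcript. Per the submitters' processing notes the build was mm10 and the tools were DESeq2, featureCounts, HISAT2, HTSeq and Salmon. Which tool did what, in which version, and whether strand was used is not given in the sources used here. Overlapping and antisense genes, and near-identical relatives such as tubulins, histones and ribosomal protein genes, may therefore share reads.

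Transcripts numbered 13128, of which 63 had no usable symbol (0.2038% to 0.3793% of TPM per library) and were left out, and the other 13065 were summed into 6610 genes, 734 of them at 0 in every library. The filter kept genes that reached 1 TPM in 2 or more libraries. The test was that of limma 3.58.1 (R 4.3.3), applied to log2(TPM + 1) in 1 model over all 10 libraries with group as the term, a mean-variance trend and 5 residual degrees of freedom. Tests were two-sided with Benjamini-Hochberg adjustment at 0.05 over all tested genes. The Phase II contrast minus the Phase I contrast was tested in the same model, and the procedure was tested on simulated data. TPM keeps no read count, so depth is unknown and no count model was fitted.

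The genes named were picked by rule: the 12 largest called rises and the 12 largest called falls whose groups did not overlap and whose higher group averaged 10 TPM or more, leaving out histones, immunoglobulin segments, small RNAs and gene models without a name. The rule adds 5 genes each way for the contrast between phases, up to 4 called members of each list, and Birc5 with Aurkb, Mki67, Prdm1, Myc, Cdkn1b, Ccnd2 and Ccnd3. Some genes that the rule picks are not reported here. The lists, the rule and the tests were chosen with earlier results of these data known. Other genes were named after their values were seen, among them Aurkc, Cdt1, Tyms, Sdc1, Cd74, Pax5, Mdm2, Trp53, Atm, Atr and the markers of other cells. Alternatives changed the pseudocount, filter, scaling, libraries fitted, replicate block, trend, fold minimum and summing of transcripts, and left out each library in turn, in which case the lone library of a group was assumed to vary like the others. Promoters are from RefSeq (GRCm38.p6). Tables and figures were made in Python 3.11.15 with numpy 2.4.6, pandas 2.3.3 and matplotlib 3.10.9.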

Additional observations from a re-analysis of the deposited data

How the results depend on the processing

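No sign was reversed with a call among the 140 named genes, of which 133 were called and 68 kept their call under all 21 alternatives. Leaving out d1 ended 60 of the named calls, u2 40, u1 34 and d2 27, and fitting the compared groups alone ended 33. Genes called in div12_48_d against div12_48_u numbered 1134 in all. The compared groups alone gave 670, with 283 lower, and a fold of at least 2 gave 249, with 187 higher and 62 lower. Leaving out each library in turn gave 347 to 1432 genes, 202 to 667 higher and 145 to 766 lower, the lowest without d1 and the highest without a naive library. The cause was not tested.

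For the test of Phase II against Phase I, with 0 genes called, a pseudocount of 5 gave 15 (13 higher, 2 lower), a filter at 5 TPM 7 (5 and 2), median-ratio scaling 23 (16 and 7), quantile normalization 8 (6 and 2), the fit without the naive group and that of the compared groups alone 11 each (8 and 3), and the most abundant transcript 2 (2 and 0). Leaving out each library gave 0 to 11 genes, 0 to 8 higher and 0 to 3 lower. The cause was not tested.

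With the replicate number as a block 877 genes were called, 462 higher and 415 lower, 11 of the named calls were lost, and the difference of contrasts had 2 calls (2 higher, 0 lower). Deviations of same-numbered libraries from their group means correlated over genes at 0.199 in Phase II and -0.238 in Phase I. With 2 pairs and no label that ties the numbers, whether same-numbered libraries share a culture is not known. They were treated as unpaired. Rescaling by the median ratio moved the median of all tested genes to -0.01 and quantile normalization to -0.07. With 2 libraries a group, a gene that was not called is not shown to be equal in the groups.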

Other observations

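Gene families grouped by name, picked after their values were seen, were described without a test of the family. Some members, such as Kdm5b and Hdac11, were named above too. Over all tested genes 12.2% were called higher and 13.4% lower. Of 8 tested alpha- and beta-tubulin genes, which build the spindle and the cell's microtubules, 7 rose and 0 fell, with a median of 0.79. Tuba1b, the most abundant, had 3238 and 2923 TPM in div12_48_d, against 1764 and 1509 TPM in div12_48_u (0.91 ± 0.12, limma adjusted p = 0.00225), and Tubb2b had 28.9 and 29.6 TPM in div12_48_d, against 9.20 and 13.3 TPM in div12_48_u (1.33 ± 0.17, adjusted p = 0.00202). All 7 tested subunits of the CCT chaperonin, which folds tubulin and actin, rose, by 0.26 to 0.46. Of 10 proteasome subunits 6 rose and 0 fell (median 0.27). Of 26 genes with Eif names, translation initiation factors and some of their regulators, 7 rose and 2 fell (median 0.10). The helicase paralogs moved in opposite directions, Eif4a1 with 1567 and 1371 TPM in div12_48_d, against 1051 and 1016 TPM in div12_48_u (0.50 ± 0.09, adjusted p = 0.00589), and Eif4a2 with 699 and 679 TPM in div12_48_d, against 989 and 1029.6 TPM in div12_48_u (-0.55 ± 0.08, adjusted p = 0.00347).

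Ligands of the TNF superfamily were mostly higher, with 5 of 9 tested genes up and 1 down. Tnfsf9, the ligand of 4-1BB, had 120.1 and 97.0 TPM in div12_48_d, against 29.4 and 17.1 TPM in div12_48_u (2.22 ± 0.23, adjusted p = 8.53e-04), and Tnfsf14, LIGHT, had 64.0 and 45.5 TPM in div12_48_d, against 14.7 and 10.3 TPM in div12_48_u (2.05 ± 0.30, adjusted p = 0.00294). Histone modifying enzymes were lower where called, with 7 of 26 down and 0 up (median -0.21). Their share of calls was near the 25.6% of all tested genes called either way, of which 13.4% were called lower. Among them the methyltransferase Kmt2d had 143 and 185 TPM in div12_48_d, against 309 and 261 TPM in div12_48_u (-0.80 ± 0.17, adjusted p = 0.0118). MAP kinases and the kinases above them had 7 of 19 down and 0 up (median -0.20), led by Mapk12 (-1.10 ± 0.22, adjusted p = 0.0101), and Map2k1, the ERK kinase MEK1, had 264 and 238 TPM in div12_48_d, against 384 and 341 TPM in div12_48_u (-0.53 ± 0.09, adjusted p = 0.00441). Of 32 histone genes of the Hist clusters 3 rose and 0 fell, a smaller share than the 12.2% of all tested genes called higher, in a family of near-identical copies whose values are uncertain.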
